A study of Mus musculus with 7 samples.

Results

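Osteolectin and its receptor are described here through 4 genes out of 53801 gene IDs measured. The genes were chosen by name, by a rule that used no measured value, but with earlier results of these data known. Clec11a encodes osteolectin, Itga10 and Itga11 encode the integrin alpha10 and alpha11 chains, and Itgb1 encodes the beta1 chain with which both pair. RNA was measured in bone marrow mesenchymal stromal cells sorted from male C57BL/6 mice, which were 8 weeks old when treatment began. In the FAPi group (4 libraries), an inhibitor of fibroblast activation protein (FAP) was injected into the peritoneum daily for 35 days at 500 µg/kg in 100 µl. The DPBS group (3 libraries) received the same volume of buffer on the same schedule. No genetic allele is named in the labels, and they call the agent only an inhibitor of FAP. The cells came from limb bones and were alive by dye (DAPI-, Calcein-AM+), Pdgfra+, and CD45-, Ter119- and Tie2-. The labels do not say whether a library is 1 mouse or a pool, so the p-values measure the spread between these libraries.

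Osteolectin is a secreted glycoprotein with a C-type lectin domain that is made by marrow stroma and bone-forming cells. It promotes the maturation of stromal progenitors into osteoblasts and helps to maintain the adult skeleton. Integrins are surface receptors built from an alpha and a beta chain. The beta1 chain pairs with many alpha chains, among them the collagen-binding chains alpha1, alpha2, alpha10 and alpha11. Alpha11 beta1 binds fibrillar collagen on mesenchymal cells, alpha10 beta1 is best known from cartilage, and both have been described as osteolectin receptors. Signaling from the receptor runs through PI3 kinase and inhibition of GSK3 to beta-catenin, the effector of canonical Wnt signaling. Osteolectin has also been reported to bind FAP and inhibit its activity, which links the ligand to the drug target in this design.

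The genes lie on different chromosomes of mm10 and each codes for protein. Clec11a (ENSMUSG00000004473.10) spans positions 44302687 to 44306902 of chromosome 7 on the minus strand and has 4 exons. Itga10 (ENSMUSG00000090210.7) spans 96645584 to 96664519 of chromosome 3, Itga11 (ENSMUSG00000032243.8) spans 62677826 to 62783982 of chromosome 9, and both have 30 exons in their longest transcript. Itgb1 (ENSMUSG00000025809.15) spans 128685654 to 128733200 of chromosome 8, and these 3 are on the plus strand. Clec11a, Itga11 and Itgb1 overlap no exon of another annotated gene. Itga10 shares 1739 exon bases, 33.5% of its own, with the protein-coding model Gm42957 on the same strand, so part of its reads could have been assigned to Gm42957 or dropped.

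The RefSeq promoters of the ligand and of the integrin genes with the highest and the lowest level are shown, since these 3 genes mark the range of expression described next. Each run is the 250 bases before the RefSeq start site in build GRCm38.p6, read 5′ to 3′ on the gene's own strand. The windows are chr7:44306960-44307209 (minus strand) for Clec11a, chr3:96645334-96645583 (plus strand) for Itga10 and chr8:128685404-128685653 (plus strand) for Itgb1. Capitals mark matches to 5 short motifs searched on both strands.
Clec11a: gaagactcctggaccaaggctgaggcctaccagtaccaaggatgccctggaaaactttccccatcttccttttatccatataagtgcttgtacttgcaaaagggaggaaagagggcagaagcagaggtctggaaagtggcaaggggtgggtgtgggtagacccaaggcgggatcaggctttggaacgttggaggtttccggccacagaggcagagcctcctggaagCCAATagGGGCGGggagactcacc
Itga10: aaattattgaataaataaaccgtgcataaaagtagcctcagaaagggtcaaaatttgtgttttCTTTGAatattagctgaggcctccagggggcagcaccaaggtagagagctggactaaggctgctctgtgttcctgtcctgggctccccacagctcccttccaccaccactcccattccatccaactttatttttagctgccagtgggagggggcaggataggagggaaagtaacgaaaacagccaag
Itgb1: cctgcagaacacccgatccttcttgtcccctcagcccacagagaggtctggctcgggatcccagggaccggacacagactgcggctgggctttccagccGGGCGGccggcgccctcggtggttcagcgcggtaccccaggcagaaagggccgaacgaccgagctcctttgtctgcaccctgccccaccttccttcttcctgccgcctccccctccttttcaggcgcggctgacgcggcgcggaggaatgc
The motifs were the TATA box (TATAAA), the GC box (GGGCGG), the CCAAT box (CCAAT), the RUNX core (TGTGGT) and the TCF/LEF core (CTTTGA). Clec11a held a GC box 12 to 17 bases and a CCAAT box 20 to 24 bases before the start. Itgb1 held a GC box 146 to 151 bases before it, and Itga10 a TCF/LEF core 182 to 187 bases before it. Of 32817 mouse promoters of the same length, 12.4% held the TATA box, 32.7% the GC box, 33.8% the CCAAT box, 14.04% the RUNX core and 13.8% the TCF/LEF core. Each match is a description of letters and not a binding site. The annotated starts of Clec11a and Itga11 differ between RefSeq and GENCODE, so their windows depend on that choice. The Itgb1 window held 21 CpG dinucleotides, Clec11a 4 and Itga10 2, where the median promoter held 6. The Itga11 window (chr9:62677605-62677854, plus strand) held 12 CpG and no match to the 5 motifs. The order by CpG number was thus Itgb1, Itga11, Clec11a and Itga10, while the order by RNA level, given next, has Clec11a above Itga11.

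Total gene counts ranged from 7492570 to 10569690 per library, and a floor of 3 counts corresponds to 0.284 to 0.4004 CPM (counts scaled to the library's total). Marrow stroma markers, such as Cxcl12 and Lepr, summed to between 25669 and 26956 CPM in DPBS and between 25104 and 29220 CPM in FAPi libraries, and all 8 were tested. Transcripts of cells that the sort should remove were also present. Erythroid markers (10 of 10 tested, all with lower estimates in FAPi) summed to 1907 to 16342 CPM in DPBS and 1653 to 3380 CPM in FAPi libraries. Neutrophil and myeloid markers (9 of 10 tested, all 9 with lower estimates) summed to 739 to 2953 CPM and 324 to 706 CPM. In each of these 2 lists 0 markers passed the adjusted edgeR threshold and 6 had an unadjusted p under 0.05. DESeq2 called 0 erythroid markers and 1 neutrophil marker, S100a8. Over all genes tested, edgeR called 0% after adjustment and 8.14% at an unadjusted p under 0.05, and DESeq2 called 1.1%. DPBS replicate 2 had the highest sum of both the erythroid and the neutrophil markers. The sums of megakaryocyte markers were 123 to 520 CPM and 98.1 to 188 CPM, and those of hematopoietic progenitor markers 22.9 to 65.2 CPM and 21.97 to 56.8 CPM. Endothelial markers summed to 19.6 to 68.8 CPM in DPBS libraries, 24.2 to 56.2 CPM in 3 FAPi libraries and 366 CPM in FAPi replicate 1. Of those 366 CPM, Kdr alone made up 340 CPM. In the same library Cdh5 was at 1.88 CPM, its lowest value, and Pecam1 at 12.2 CPM, within its DPBS range. No endothelial marker other than Kdr had its highest value there. Lymphocyte markers, with Cd3d and Cd3e at 0 in every library, summed to 13.4 to 22.9 CPM in 5 libraries, 275 CPM in DPBS replicate 2 and 203 CPM in FAPi replicate 1. No batch is named in the labels.

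All 4 genes were detected in every library, and their levels differed widely from each other. Compared per length, as CPM per kilobase (kb) of exons averaged over the 7 libraries, Itgb1 stood at 65.2 (47.6 to 77.5), above 94.3% of tested genes. Clec11a followed at 21.4 (16.01 to 30.2), above 84.4% of tested genes, and Itga11 at 11.4 (8.00 to 15.6), above 73.7%. Itga10 was lowest at 1.07 (0.259 to 1.91), above 14.3%. The ranges of neighbours in this order did not overlap, but the lowest Clec11a library (16.01) lay close to the highest Itga11 library (15.6). With the length of the longest transcript the highest Itga11 library stood at 16.1, and these 2 ranges overlapped. Replicate spread exceeded counting error for each gene. The coefficient of variation over the 7 libraries was 62.5% for Itga10, where counting alone gives 14.2%, and 16.2% for Itgb1, where counting gives 2.04%. The 4 genes passed the low-count filter.

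**Figure D1:**
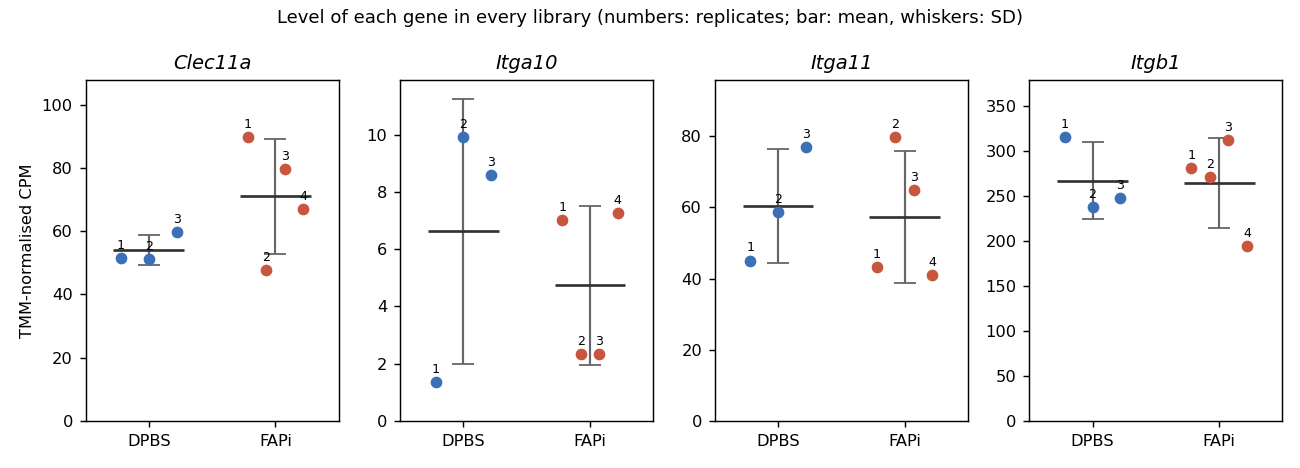
TMM-normalised CPM (y axis, from 0, a separate scale per gene) of Clec11a, Itga10, Itga11 and Itgb1 in 3 DPBS and 4 FAPi libraries; points are libraries with their replicate number, horizontal bars the group mean and whiskers the SD. The groups overlap for each gene, and Itga10 falls near 1.34 CPM in DPBS replicate 1 and near 2.33 CPM in FAPi replicates 2 and 3.

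The ligand gene Clec11a had a higher mean in FAPi mice, within the spread of the libraries. Its TMM-normalised level was 51.6, 51.2 and 59.7 CPM in DPBS replicates 1 to 3 and 89.9, 47.7, 79.7 and 66.9 CPM in FAPi replicates 1 to 4. In 3 of the 4 FAPi libraries it lay above all DPBS libraries, and FAPi replicate 2 lay below all of them, so the groups overlapped. The means were 54.2 ± 4.76 CPM (SD, n = 3) and 71.0 ± 18.2 CPM (SD, n = 4). The log2 difference, FAPi minus DPBS, was 0.39 ± 0.33 (SE), with a 95% interval of -0.34 to 1.13 (adjusted p = 0.811, edgeR quasi-likelihood test with Benjamini-Hochberg adjustment). That interval runs from 0.788 to 2.18 times the DPBS level. Without FAPi replicate 2 the log2 difference was 0.53. It was 0.26 without FAPi replicate 1, the library with a high lymphocyte sum and a high endothelial sum made up mostly of Kdr. On the deposited CPM, where the median of all genes was -0.17, it was 0.18. The part of those cells in the level was not tested. In bulk RNA, fewer cells of a type and less RNA per cell cannot be told apart, which holds for each gene here.

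The beta1 chain gene Itgb1 had nearly equal group means. Its levels were 316, 238 and 247 CPM in DPBS replicates 1 to 3 and 281, 272, 312 and 194 CPM in FAPi replicates 1 to 4. The highest library was DPBS replicate 1 and the lowest FAPi replicate 4, and the other 5 lay between them. The means were 267 ± 42.6 CPM (SD, n = 3) and 265 ± 50.1 CPM (SD, n = 4). The log2 difference was -0.01 ± 0.25 (interval -0.57 to 0.54, adjusted p = 0.996, edgeR), and its sign turned with the scaling or with 1 library left out (0.02 with RLE scaling, 0.12 without DPBS replicate 1). The interval spans 0.675 to 1.45 times the DPBS level.

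The alpha11 chain gene Itga11, whose product confers collagen and osteolectin binding on the pair, varied within each group. Its levels were 45.1, 58.7 and 77.0 CPM in DPBS replicates 1 to 3 and 43.2, 79.9, 64.9 and 41.0 CPM in FAPi replicates 1 to 4. Each group held a library at or below 45.1 CPM and a library at or above 77.0 CPM. The means were 60.3 ± 16.02 CPM (SD, n = 3) and 57.2 ± 18.5 CPM (SD, n = 4). The log2 difference was -0.07 ± 0.37 (interval -0.89 to 0.74, adjusted p = 0.985, edgeR), and it turned to 0.14 without DPBS replicate 3. The interval leaves room for levels from 0.539 to 1.68 times those of DPBS.

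The alpha10 chain gene Itga10 was low and the most variable. Its levels were 1.34, 9.93 and 8.58 CPM in DPBS replicates 1 to 3 and 7.03, 2.33, 2.33 and 7.26 CPM in FAPi replicates 1 to 4. DPBS replicate 1 held 15 counts, with a 95% Wilson interval of 0.814 to 2.22 CPM, and DPBS replicate 2 held 94 counts (8.11 to 12.1 CPM). The libraries fell into a low set of 3 and a higher set of 4, each with members of both groups. The means were 6.62 ± 4.62 CPM (SD, n = 3) and 4.74 ± 2.78 CPM (SD, n = 4). The log2 difference was -0.48 ± 0.90 (interval -2.47 to 1.51, adjusted p = 0.936, edgeR), and it moved to -0.97 without DPBS replicate 1, -0.07 without DPBS replicate 2 and -0.02 with voom weights. With the counts of the overlapping Gm42957 added (22, 2 and 3 in DPBS, 13, 2, 2 and 3 in FAPi libraries), an alternative chosen after seeing the data, it was -0.47.

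Of the 4 genes, 0 passed the adjusted edgeR threshold of 0.05, 0 had an unadjusted p under 0.05, 0 were called by DESeq2 and 0 had groups that did not overlap. Over the 12930 genes tested, edgeR called 0% after adjustment and 8.14% at an unadjusted p under 0.05, DESeq2 called 1.1% of 12267 genes, and the groups did not overlap at 7.34%. The 4 genes are too few to be read against these shares. The counts called in the lists below stand beside the same shares, and those lists are short too. The log2 differences of the 4 genes lay between the 23.5th and the 70.5th percentile of all tested genes, whose median was 0.01.

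**Figure D2:**
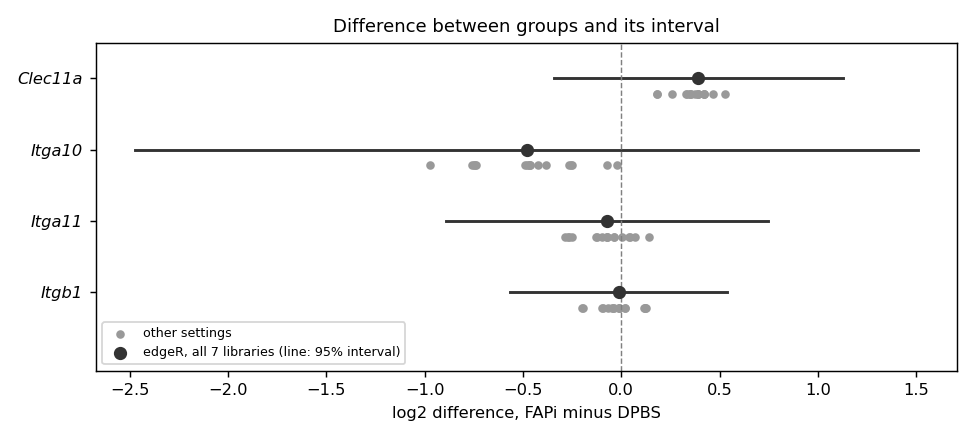
Log2 difference, FAPi minus DPBS (x axis), of the 4 genes; black points are the edgeR estimates from 7 libraries, lines their 95% intervals, and grey points below them the estimates under 17 other settings. Each interval spans 0, and it is widest for Itga10, from -2.47 to 1.51.

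The balance between chains was described within each library, where scaling cancels. The Itga11 to Itgb1 ratio, per exon length, was 0.113, 0.196 and 0.248 in DPBS replicates 1 to 3 and 0.122, 0.234, 0.165 and 0.168 in FAPi replicates 1 to 4. Alpha11 RNA was therefore less abundant than beta1 RNA in 7 of 7 libraries, with means of 0.186 ± 0.0677 (SD, n = 3) and 0.172 ± 0.0461 (SD, n = 4) that differed by less than the spread. The Itga10 to Itga11 ratio averaged 0.102 ± 0.0692 in DPBS and 0.1001 ± 0.0787 in FAPi libraries, and ranged from 0.0288 to 0.175. Alpha11 was thus the more abundant of both osteolectin-binding alpha chains at the RNA level in every library. The Clec11a to Itga11 ratio was 1.97, 1.503 and 1.33 in DPBS and 3.59, 1.03, 2.12 and 2.81 in FAPi libraries. FAPi replicate 2, the library with the lowest ligand level, had the highest Itga11 level, and FAPi replicates 1 and 4 had the lowest Itga11 levels. With the length of the longest transcript in place of all exons the ratio of FAPi replicate 2 was 0.996, so the order of these 2 genes in that library depends on the length used.

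**Figure D3:**
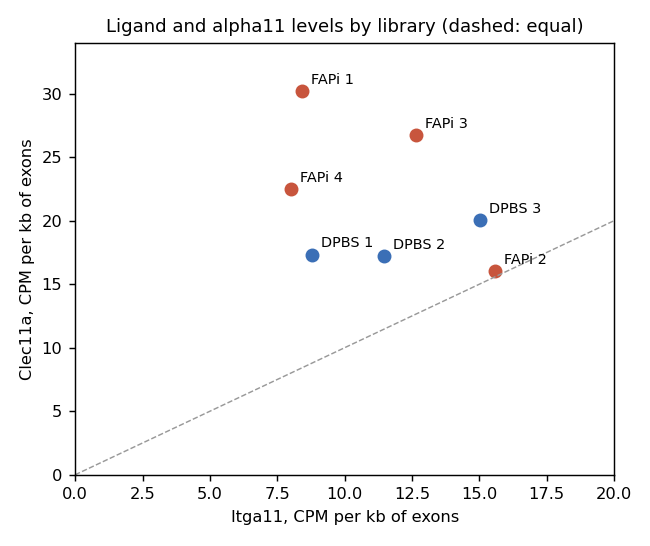
Clec11a (y axis) against Itga11 (x axis), both in CPM per kb of exons, with 1 point per library coloured by group (blue DPBS, red FAPi); the dashed line marks equal levels. The 7 libraries lie above the line, closest for FAPi replicate 2 (ratio 1.03) and farthest for FAPi replicate 1 (ratio 3.59).

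Relations between the 4 genes were computed on log2 CPM over the 7 libraries, which share sequencing depth and scaling within a library. For Clec11a and Itga11, Pearson's r was -0.39 (exact permutation p = 0.363) and Spearman's rho -0.54 (exact permutation p = 0.236). After adjustment over the 6 pairs the values were 0.870 and 0.707. Without the 2 libraries farthest from the median of Clec11a, FAPi replicates 1 and 3, r was -0.45. For Itga10 and Itgb1, r was -0.72 (exact permutation p = 0.0671, adjusted 0.402) and rho -0.79 (exact permutation p = 0.0480, adjusted 0.288). Without DPBS replicate 1 and FAPi replicate 2, r was -0.65. None of the 6 pairs passed after adjustment. Both groups were pooled for these values, since neither holds 6 libraries.

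Genes whose pattern over the 7 libraries was most like each of the 4 are given as a description, without a test, among 5908 or 5909 genes with a mean of at least 20 CPM. For Clec11a they were Golgb1 (r = 0.98), a Golgi membrane protein gene, Stard7 (0.95), a lipid transfer protein gene, and AI837181 (0.95). Golgb1 ranged from 113 CPM in FAPi replicate 2 to 182 CPM in FAPi replicate 1, the same 2 libraries that were lowest and highest for Clec11a. It was picked by likeness over these libraries, so that match is not a separate result. For Itga10 they were Selenos (0.96), Trim12c (0.96), of a multigene family whose members can share reads, and Tlcd1 (0.95). For Itga11 they were Mad2l1 (0.96), a spindle checkpoint gene, Ndel1 (0.95), a dynein regulator gene, and Bbs5 (0.95), a gene of the ciliary BBSome. For Itgb1 they were Kin (0.98), Ubxn2a (0.97) and Csmd1 (0.97). The number of genes with r above 0.9 was 23 for Clec11a, 11 for Itga10, 13 for Itga11 and 16 for Itgb1, and with 7 libraries close matches are common among this many genes.

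Among the collagen-binding alpha chains, Itga1 and not Itga11 was the most abundant. Itga1, the alpha1 chain gene, averaged 60.7 CPM per kb of exons, and Itga2, the alpha2 chain gene, 0.359. Itga1 had 1785, 1281 and 1535 CPM in DPBS replicates 1 to 3 and 668, 939, 1013 and 681 CPM in FAPi replicates 1 to 4. Each FAPi library lay below each DPBS library, and groups did not overlap at 7.34% of all tested genes. The log2 difference was -0.89 ± 0.24 (interval -1.41 to -0.38, unadjusted p = 0.00302), and it did not pass the edgeR threshold over all genes (adjusted p = 0.469). It was negative under the 17 other settings run, from -1.08 to -0.78, with adjusted p-values from 0.244 to 0.842. Itga1 shares 3.68% of its exon bases with Gm49395. The neutrophil and myeloid sums of the groups also did not overlap, with lower values in FAPi libraries, while the erythroid sum of DPBS replicate 3 (1907 CPM) lay within the FAPi range. With the mean of blood markers as a covariate the log2 difference of Itga1 was -0.86. Blood markers themselves had lower estimates in FAPi libraries, so this fit cannot tell their part from that of treatment. The part of blood cells in the Itga1 difference was not tested. Itga2 was near the floor of 3 counts in DPBS replicate 3 (2 counts) and highest in DPBS replicate 2 (87 counts). It lies outside the rule for named genes and was named after its values were seen.

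The Itga1 to Itga11 ratio per exon length was 10.9, 6.02 and 5.50 in DPBS replicates 1 to 3 and 4.27, 3.24, 4.31 and 4.58 in FAPi replicates 1 to 4. The ranges of the groups did not overlap. Of the summed level of the 4 collagen-binding alpha genes, Itga11 made up 8.32 to 15.1% in DPBS and 17.3 to 23.4% in FAPi libraries, and Itga10 0.246 to 2.29% and 0.662 to 3.03%. These shares were computed after the levels of Itga1 had been seen, so they are given without a test. Itga11 itself averaged 60.3 CPM in DPBS and 57.2 CPM in FAPi libraries. By group means, the larger Itga11 share in FAPi libraries went with a lower Itga1 level, while the mean Itga11 level was not higher. Single libraries varied. FAPi replicate 2 had the largest share (23.4%), the highest Itga11 level of the 7 libraries (79.9 CPM) and 939 CPM of Itga1. FAPi replicates 1 and 4 had the lowest Itga11 levels, and their shares (18.4% and 17.3%) still lay above those of DPBS libraries. The source of the larger share was not tested. With the length of the longest transcript the mean ratio was 12.3 in DPBS and 6.73 in FAPi libraries, since Itga1 has 18599 exon bases in all and 10967 in its longest transcript. The 4 genes of this list had lower estimates (0 passed after adjustment, 1 of 4 at an unadjusted p under 0.05, and 0 with DESeq2), with a median log2 difference of -0.69 beside 0.01 over all genes.

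**Figure D4:**
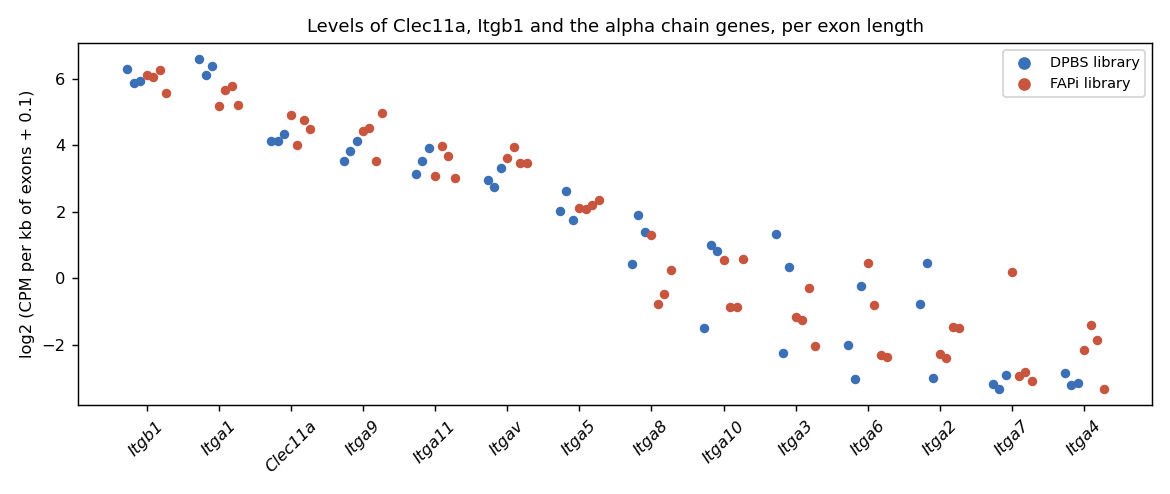
Level of Itgb1, 12 alpha chain genes and Clec11a in each library (log2 of CPM per kb of exons plus 0.1, y axis), ordered by mean; blue points are DPBS and red points FAPi libraries. Itga1 lies beside Itgb1 at the top with its DPBS points above its FAPi points, Itga11 in the upper middle, and Itga10 below it, at 0.101 times the level of Itga11 on average.

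Of 8 other alpha chains that can pair with beta1, 7 were tested, and 0 passed after adjustment in either direction (0 at an unadjusted p under 0.05, and 0 with DESeq2). Estimates were higher for 5 and lower for 2, with a median log2 difference of 0.59. Itga9, which encodes a receptor chain for tenascin and osteopontin, averaged 18.5 CPM per kb, above Itga11, with group means of 110 ± 22.9 CPM (DPBS) and 166 ± 61.9 CPM (FAPi) (log2 difference 0.59 ± 0.35). That difference was 0.37 without FAPi replicate 4, 0.35 on the deposited CPM and 0.23 with the blood marker covariate. Itgav, the alphaV chain gene, had 83.1, 70.7 and 106 CPM in DPBS and 130, 164, 119 and 118 CPM in FAPi libraries. Its groups did not overlap, as for 7.34% of all tested genes, and its log2 difference was 0.61 ± 0.28 (adjusted p = 0.616, edgeR). An antisense gene shares 5.90% of its exon bases. Itga5, the fibronectin receptor chain gene, had 21.9 ± 7.11 and 22.2 ± 2.05 CPM (log2 difference 0.02 ± 0.42, and -0.11 on the deposited CPM).

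Integrin adaptors and other adhesion partners showed 0 calls among 15 of 16 tested (0 at an unadjusted p under 0.05, and 0 with DESeq2), with 6 higher and 9 lower estimates and a median of -0.13. Lims1, which encodes the adaptor PINCH1, averaged 169 ± 5.59 CPM (DPBS) and 190 ± 43.7 CPM (FAPi) (log2 difference 0.17 ± 0.26, and -0.04 on the deposited CPM). Fermt2, which encodes the integrin activator kindlin-2, had 204 ± 60.6 and 164 ± 42.9 CPM (log2 difference -0.31 ± 0.30). That difference was -0.051 without DPBS replicate 1, -0.063 with the blood marker covariate, -0.48 on the deposited CPM, -0.47 without DPBS replicate 3 and -0.50 without FAPi replicate 2. Cd151, a tetraspanin gene, had 85.8 ± 27.5 and 51.0 ± 20.2 CPM (log2 difference -0.75 ± 0.40, -0.47 without DPBS replicate 1 and -0.39 with the blood marker covariate), and it overlaps an antisense gene. Ilk, the integrin-linked kinase gene, is listed at 0 in every library. It shares 76.7% of its exon bases with Taf10 on the other strand, so its value does not show absence of the transcript, and it was named after its values were seen.

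Among the matrix ligands of these integrins, the type I collagen genes Col1a1 and Col1a2 were abundant, at 393 and 247 CPM per kb of exons, and Col3a1 averaged 25.9. Col2a1 and Col11a2, named after their values were seen, averaged 2.22 and 1.24. Of 9 fibrillar collagen and fibronectin genes tested, 0 passed after adjustment (1 at an unadjusted p under 0.05, and 0 with DESeq2), 6 had higher and 3 lower estimates, and the median was 0.16. Col1a1, the alpha1 chain gene of type I collagen, ranged from 1014 to 4695 CPM in DPBS and from 1206 to 5215 CPM in FAPi libraries, highest in DPBS replicate 3 and FAPi replicate 2. These 2 libraries were also the highest for Itga11. Col1a2 had 3161 ± 956 and 3006 ± 181 CPM, and Col3a1 had 239 ± 57.1 and 266 ± 75.6 CPM. The groups overlapped for each of these genes.

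Along the route from receptor to beta-catenin, 11 of 12 relay genes were tested, and 0 passed after adjustment in either direction (2 at an unadjusted p under 0.05, and 0 with DESeq2). Estimates were higher for 8 and lower for 3, with a median of 0.15. Gsk3b, which encodes the kinase that marks beta-catenin for destruction, had 344, 464 and 593 CPM in DPBS and 708, 1130, 881 and 466 CPM in FAPi libraries. FAPi replicate 4 lay within the DPBS range and the other 3 FAPi libraries above it (log2 difference 0.77 ± 0.32, adjusted p = 0.574, edgeR). Csnk1a1, a casein kinase gene of the same destruction complex, had 233 ± 54.3 and 461 ± 187 CPM (log2 difference 0.98 ± 0.34, adjusted p = 0.509, edgeR). FAPi replicate 3, at 284 CPM, lay below DPBS replicate 3, at 286 CPM. Pik3ca, a PI3 kinase catalytic subunit gene, had 90.6 ± 21.5 and 109 ± 36.7 CPM (log2 difference 0.26 ± 0.36). With 1 library left out that difference ranged from 0.11, without FAPi replicate 4, to 0.47, without FAPi replicate 2. The relay is set by phosphorylation, which RNA levels do not measure.

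Of 15 canonical Wnt targets, 9 passed the low-count filter and 0 of these passed after adjustment (2 at an unadjusted p under 0.05, and 0 with DESeq2). Estimates were higher for 8 and lower for 1, with a median log2 difference of 0.76 beside 0.01 over all genes. Some higher estimates rest mostly on 1 library. Lgr5 and Ccnd1 reached 57.1 and 9.49 CPM in FAPi replicate 4, against at most 13.9 and 2.24 CPM in the other libraries. Targets that are high in 1 group only can pass the filter through that group, so this count does not cover the 6 left out, of which 2 were at 0 in every library. Of the rest, Notum (40 counts in DPBS replicate 2) and Apcdd1 (15 and 33 in DPBS replicates 2 and 3) were highest in DPBS libraries. Fosl1 (50 counts) and Rnf43 (4 counts) were highest in FAPi replicate 1. The lower estimate was that of Axin2 (log2 difference -1.92 ± 1.63), at 0.211 to 8.29 CPM in DPBS and 0 to 3.102 CPM in FAPi libraries. The unadjusted p-values under 0.05 were those of Myc and Lef1. Lef1 was at 189 CPM in FAPi replicate 1 and at 3.77 to 12.8 CPM in FAPi replicates 2 to 4. Its DPBS levels were 2.73 to 8.34 CPM. Axin2, Lef1, Lgr5, Ccnd1, Notum, Apcdd1, Fosl1 and Rnf43 were named after their values were seen. Myc, a growth-promoting transcription factor gene, had 74.8, 86.9 and 103 CPM in DPBS and 142, 110, 231 and 115 CPM in FAPi libraries. Its groups did not overlap, as for 7.34% of all tested genes (log2 difference 0.76 ± 0.33, adjusted p = 0.583, edgeR). Without FAPi replicate 3, its highest library, the log2 difference was 0.48. Nkd2, a feedback inhibitor of Wnt signaling, ranged from 36.1 to 322 CPM in DPBS and from 89.1 to 354 CPM in FAPi libraries (log2 difference 0.56 ± 0.72, 1.83 without DPBS replicate 2, 0.097 without DPBS replicate 3 and 0.25 to 0.29 without DPBS replicate 1, FAPi replicate 2 or FAPi replicate 4). Znrf3, a ubiquitin ligase gene that removes Wnt receptors, was highest in FAPi replicate 2 at 270 CPM, and its log2 difference of 0.40 ± 0.51 turned to -0.17 without that library.

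**Figure D5:**
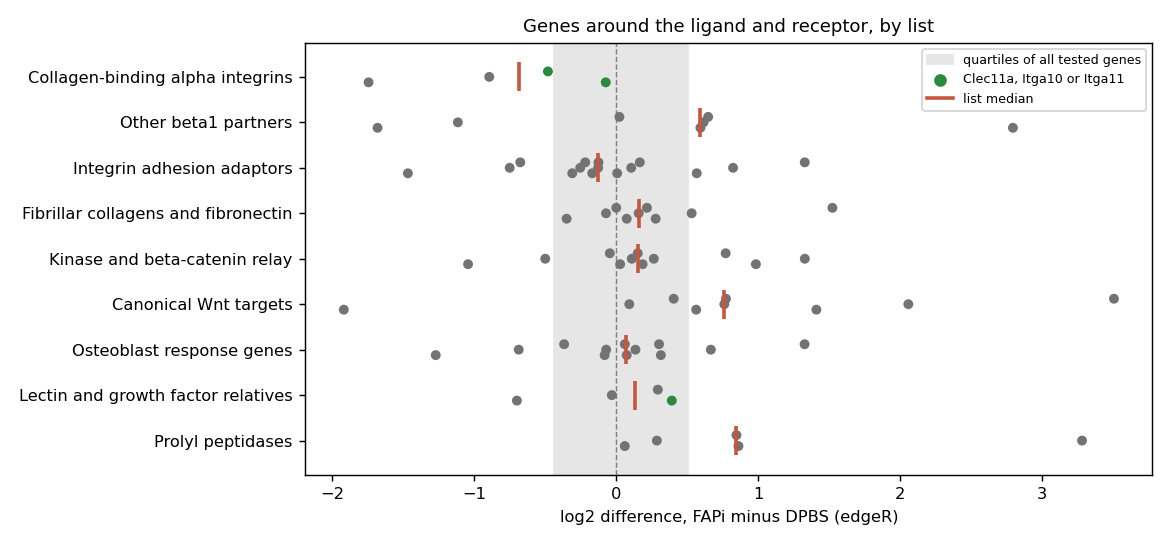
Genes of 9 lists around ligand and receptor (rows); each point is a tested gene at its log2 difference, FAPi minus DPBS (x axis), green for Clec11a, Itga10 and Itga11, with red bars at list medians and a grey band from the lower to the upper quartile of all tested genes. List medians range from -0.69 (collagen-binding alpha chains) to 0.85 (prolyl peptidases), and no gene passed after adjustment.

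The osteoblast response genes are a general osteoblast list and not a measured response to osteolectin. Of these genes 12 of 12 were tested, and 0 passed after adjustment (0 at an unadjusted p under 0.05, and 0 with DESeq2), with 7 higher and 5 lower estimates and a median of 0.07. Ibsp, the bone sialoprotein gene and the most abundant of them, averaged 14394 ± 2774 CPM (DPBS) and 13702 ± 3193 CPM (FAPi). Bglap, the osteocalcin gene, which shares reads with near-identical copies, averaged 2643 ± 2118 and 1095 ± 696 CPM. Its log2 difference of -1.27 ± 0.66 (adjusted p = 0.661, edgeR) was -0.51 without DPBS replicate 3, its highest library at 4818 CPM, and -1.75 without DPBS replicate 1. Spp1, the osteopontin gene, averaged 3031 ± 581 and 3329 ± 932 CPM and shares 18.8% of its exon bases with Gm42793. The osteoblast marker sum ranged from 15942 to 27644 CPM and from 14203 to 25092 CPM, and its lowest libraries, DPBS replicate 1 and FAPi replicate 1, also had low Itga11 levels, whereas FAPi replicate 4, the lowest for Itga11, was at 25092 CPM. For the growth factor relatives, 4 of 5 genes were tested and 0 passed (0 at an unadjusted p under 0.05, and 0 with DESeq2), with 2 higher and 2 lower estimates and a median of 0.13. Kitl, the stem cell factor gene, had 1111 ± 59.8 and 1087 ± 150 CPM. Csf1, the macrophage colony-stimulating factor gene, had 552 ± 39.5 and 676 ± 47.9 CPM. The groups did not overlap for Csf1, as for 7.34% of all tested genes (log2 difference 0.29 ± 0.20, adjusted p = 0.747, edgeR). Per kb of exons Kitl and Csf1 exceeded Clec11a, at 186 and 118 CPM per kb. Of the prolyl peptidases, 5 of 5 had higher estimates, 0 passed after adjustment (1 at an unadjusted p under 0.05, and 0 with DESeq2) and the median was 0.85. Fap itself, whose product is the drug target, averaged 38.5 CPM per kb, also above Clec11a, and had 194 ± 19.7 and 236 ± 28.5 CPM. Its relatives Dpp8 and Dpp9 averaged 23.5 ± 6.30 and 17.2 ± 15.9 CPM in DPBS and 42.7 ± 36.1 and 31.0 ± 7.87 CPM in FAPi libraries. The log2 difference of Dpp8, which overlaps an antisense gene, was 0.86 ± 0.66, 0.21 without FAPi replicate 4 and -0.046 with the blood marker covariate. That of Dpp9 was 0.85 ± 0.71, 0.32 without DPBS replicate 2, 1.80 without DPBS replicate 3 and 0.16 with the covariate.

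Cartilage markers were examined beside Itga10, since alpha10 is a chondrocyte integrin. Of 13 chondrocyte markers, 5 passed the filter, with 3 higher and 2 lower estimates, 0 past the adjusted edgeR threshold, 1 at an unadjusted p under 0.05 and 0 called by DESeq2. The markers Col9a2, Col10a1, Matn1 and Matn3 were at 0 in every library. The marker sum was 77.5 to 149 CPM in DPBS and 94.9 to 174 CPM in FAPi libraries. Sox9, the cartilage transcription factor gene, had 26.8, 24.6 and 25.2 CPM in DPBS and 51.6, 13.7, 54.3 and 62.4 CPM in FAPi libraries. Snorc, a cartilage proteoglycan gene that did not pass the filter, was at 36.8 CPM in DPBS replicate 3 and at 0.358 to 0.951 CPM in the other 6 libraries. Col2a1, the type II collagen gene, which is not among the 3 highest by level, had 9.91 ± 7.49 and 28.5 ± 17.2 CPM and was highest in FAPi replicate 4 at 53.9 CPM. Comp, a cartilage matrix gene also found in tendon, had 37.9 ± 5.66 and 35.2 ± 10.3 CPM. DPBS replicates 1 and 2 had nearly equal chondrocyte sums, 77.5 and 77.9 CPM, while their Itga10 levels were 1.34 and 9.93 CPM. The part of cartilage cells in the Itga10 level was not tested beyond these values.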

How the data were processed

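The authors deposited a table of gene counts and a table of CPM for each of 7 libraries, made by a modified Smart-seq2 method and paired 150-base reads, per the labels. The submitters' processing notes name STAR, HTSeq and the mm10 build. No source used here gives the strand setting or describes removal of duplicates. Deposited CPM equal count over total count to within 4.55e-05 CPM, and 6 of the 7 CPM tables repeat their last lines (first copy used). Of the gene IDs, 53620 of 53801 matched GENCODE M21 (mm10), the source of symbols, positions and exon lengths.

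The main test of the deposited counts was edgeR 4.0.16 under R 4.3.3 (filterByExpr with minimum count 10, TMM, robust quasi-likelihood fit of FAPi against DPBS, Benjamini-Hochberg adjustment over 12930 genes, threshold 0.05). The SE is the log2 difference over the square root of F. Levels are count over TMM-scaled library size. The functions were tested on simulated data. Relations between genes used log2 CPM with prior count 2. Wilson intervals and floors cover counting error only, since reads without molecular identifiers are not independent molecules. DESeq2 1.42.0, limma 3.58.1 on voom and on log2 of the deposited CPM with pseudocounts 1 and 0.1, other scalings and filters, a blood marker covariate, a replicate block and each library left out served as alternatives. Each pair of libraries within a group differed by more than sampling noise (chi-square per degree of freedom 72.8 to 117).

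The 4 genes, 9 pathway lists and 9 marker lists were chosen with earlier results of these data known. The text names these genes, the 3 list members with the highest CPM per kb, and the 3 genes most like each of the 4 in pattern, leaving out predicted and clone names. Exceptions are marked. Marker lists are given by their sums, and their highest members are not all named.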

Additional observations from a re-analysis of the deposited data

Results flagged for a closer look

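Within the FAPi group, 60 values were screened for 1 library standing apart, by its gap to the nearest library over the range of the group. They were levels of many named genes, chain ratios and marker sums. Genes such as Kdr, Lef1, Axin2, Lgr5 and Ccnd1 were not among them, though each had 1 FAPi library far above the others. The check marked 5 values, where chance marks about 1 in 20. Since such genes were left out, the number marked cannot be read against that share. The 3 DPBS libraries are too few for such a check. Levels and ratios of Clec11a, Itga10, Itga11 and Itgb1 were not among the marked values. Col1a2 was lowest in FAPi replicate 1 at 2737 CPM, against 3065 to 3129 CPM in the other 3. Kin was lowest in FAPi replicate 4 at 6.14 CPM, against 26.6 to 29.6 CPM. It was picked as the gene most like Itgb1 in pattern, so sharing its lowest library with Itgb1 is not a separate result. The neutrophil and myeloid marker sum was lowest in FAPi replicate 4 at 324 CPM, against 645 to 706 CPM. FAPi replicate 1 had the highest endothelial marker sum, 366 CPM against 24.2 to 56.2 CPM, and the highest lymphocyte marker sum, 203 CPM against 13.4 to 22.9 CPM. Kdr alone made up 340 CPM of the endothelial sum in that library, and no other endothelial marker had its highest value of all libraries there. That library also had the highest Clec11a level of the 7. The part of these cells in the level was not tested.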

How the results depend on the processing

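Clec11a was positive (0.18 to 0.53) and Itga10 negative (-0.97 to -0.02) under the 17 alternatives run, and 0 of the 4 genes passed the threshold under any of them. The difference of Itga11 turned to 0.0022 with voom weights and ranged from -0.29 to 0.14 with 1 library left out, positive without DPBS replicate 3, FAPi replicate 1 or FAPi replicate 4. That of Itgb1 turned to 0.020 with DESeq2 and 0.020 with RLE scaling and to 0.12 with the blood marker covariate, and ranged from -0.096 to 0.12 with 1 library left out. Limma on the deposited CPM shifted the median of all genes by -0.17 (pseudocount 1) and -0.18 (pseudocount 0.1). Relative to it Clec11a stood at 0.35 and 0.37, Itga10 at -0.21 and -0.24, Itga11 at -0.096 and -0.085, and Itgb1 at -0.027 and -0.013. On the same scales, unshifted, Itga5 was -0.11 and -0.11, Lims1 -0.036 and -0.036, and Znrf3 -0.011 and -0.014. With the blood marker covariate Lims1 was -0.016, Pik3ca -0.11 and Dpp8 -0.046. Leaving out 1 library gave Itga5 -0.15 to 0.31 and Znrf3 -0.17 to 0.70. The cause of these shifts was not tested. The counts of 0 higher and 0 lower genes became 84 and 51 with DESeq2 (663 adjusted p-values NA), 4 and 2 on the deposited CPM at either pseudocount, 1 and 0 with voom and 5 and 1 without a filter. They ranged from 0 to 2 higher and 0 to 1 lower with 1 library left out, the calls coming without DPBS replicate 3. The 2 length scales gave Itga11 to Itgb1 ratios of 0.186 and 0.179 in DPBS and 0.172 and 0.166 in FAPi libraries.

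Libraries that share a replicate number were not paired by it (correlations of deviations -0.01, -0.02 and -0.05). With the replicate number as a block, 0 genes passed the adjusted threshold and 718 had an unadjusted p under 0.05. In that fit Itga11 was 0.045, Itgb1 0.12, Dpp8 -0.061 and Lims1 -0.00050. Replicate 4 exists only in the FAPi group, so FAPi replicate 4 does not add to the group difference in the block fit. Leaving out that library without a block gave Itga11 0.068, Itgb1 0.12 and Dpp8 0.21.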
